A study of Mus musculus with 12 samples.

Results

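The 26 neuronal ion channel genes described here were chosen by name: 4 voltage-gated sodium channels, 9 voltage-gated potassium channels, 4 inwardly rectifying potassium channels, 1 BK channel beta subunit, 4 voltage-gated calcium channels, the HCN channel Hcn2 and 3 GABA-A receptor subunits. Each gene has a row of its own in the count tables, and counts may also sit in an annotated feature that lies inside the channel gene on the opposite strand. A feature, a row of the count tables, was assigned to a channel gene when at least 50% of its exon bases (GENCODE M21) lay inside that gene on the other strand, and its reads were treated as reads of the channel gene, called its host. Of the 26 genes, 9 held such features (10 features in all) and 17 held none, out of 6259 hosts and 55471 identifiers in the whole series. The sources used here do not give the strand setting with which the authors counted. Reads of a channel transcript and reads of an antisense transcript therefore cannot be told apart, in these features or in the genes' own rows.

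RNA came from mixed cortex and hippocampus of adult male C57BL6JL mice aged 3 to 5 months, which were naive and handled in parallel, or were killed 90 min after maximal electroconvulsive stimulation (MECS, 85 mA for 1 s through ear clips), which convulsed every animal. Homogenised tissue was irradiated with ultraviolet light (400 mJ/cm2), an input sample was kept, and the rest of the lysate was precipitated with an antibody to U1-70K, one of the proteins in the U1 snRNP, the particle that pairs small nuclear RNA U1 with proteins. The 12 libraries (single-end, 100 bp, from a stranded total RNA kit) form 4 groups of 3: input from naive brain, input from MECS brain, and U1 precipitate from each. A U1 and an input library that share a title number come from the same lysate; whether a lysate is 1 animal or pooled tissue is not stated. There was no control precipitate, so a difference between U1 and input cannot be told apart from other differences in RNA recovery, and in whole tissue fewer cells of a type and less RNA per cell cannot be told apart either. The series title names the question: whether neuronal stimulation changes U1 snRNP binding and polyadenylation within introns.

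Voltage-gated sodium channels carry the rising phase of the action potential, voltage-gated potassium channels repolarise the membrane, and voltage-gated calcium channels couple firing to transmitter release and to signalling in the cell. Inwardly rectifying potassium channels and the regulatory subunits of BK channels set how readily a neuron fires again, and GABA-A receptors carry fast inhibition. Many channel genes are long, with long introns. U1 snRNP pairs with the 5′ splice site at the start of an intron, and U1 bound in an intron is also known to suppress cleavage and polyadenylation there.

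The libraries held between 704432 and 1962312 gene counts, which were 1.42 to 1.84% of the listed reads, while 88.3 to 91.3% of the reads fell in no feature. Features with an opposite-strand host took 57.9 to 63.9% of the gene counts. Neuronal marker genes were present, which fits the tissue label: the 5 of 9 neuronal markers that are hosts summed to between 5050 and 6670 CPM (counts scaled to a common library total) in naive input, and all 9 had counts in their own rows. In naive U1 those 5 hosts summed to between 2270 and 2740 CPM, a difference carried mostly by Syp, whose mean was 4000 CPM in naive input and 703 CPM in naive U1. The other 4 did not move one way: Slc32a1 had means of 198 and 39.8 CPM, Snap25 of 88 and 86.2 CPM, Syt1 of 1390 and 1290 CPM and Rbfox3 of 272 and 443 CPM, and in the fit 1 of the 5 was called higher and 2 lower with U1. In MECS brain 0 were called higher and 2 lower, with Syp at 3600 CPM in input and 746 CPM in U1. Of 8 pericyte and smooth muscle markers 4 are hosts, and all 4 were called higher with U1 in both treatments. Their sum was between 278 and 437 CPM in naive input and between 1440 and 2690 CPM in naive U1. In own rows 3 of 7 tested were higher in naive and 1 of 6 in MECS brain, and Pln fell from 220 to 164 CPM in naive means. The astrocyte host Slc1a2 (5220 and 1170 CPM in naive input and U1) was called lower in both treatments. The endothelial host Nos3 (258 and 814 CPM) was called higher in both. Of oligodendrocyte own rows 3 of 5 were lower in each treatment, while no oligodendrocyte or microglia host was called. No marker of these lists was at 0 in every library. The part of these marker differences in the channel results was not tested.

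The 10 features differ in what lies opposite them. Those of Scn1a, Scn3a, Kcnq3, Kcnh7, Cacna1b and Cacna1c lie wholly opposite introns, some of them very deep: Gm27153 sits 202.7 kb into the first intron of Kcnq3, which is 254.4 kb long, and Gm13569 sits 27.1 kb into intron 6 of Kcnh7. Gm41505 covers the 3′ end of Kcnj6, with 378 bases opposite untranslated exon, 2 opposite coding exon, 633 opposite intron and 187 beyond the gene. Kcnmb4os1 covers 166 coding bases, 189 untranslated exon bases and 469 intron bases of Kcnmb4. Gm16183 covers 229 coding bases, 206 bases of exons of noncoding transcripts and 758 intron bases of Cacna1a. Features of Kcnj6 (Gm22745, a miRNA gene of 70 bases), Cacna1b (Gm13459, a processed pseudogene) and Cacna1c (Gm25905, an snRNA gene of 101 bases) belong to kinds of gene that share sequence with copies elsewhere, so their counts are uncertain.

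**Figure D1:**
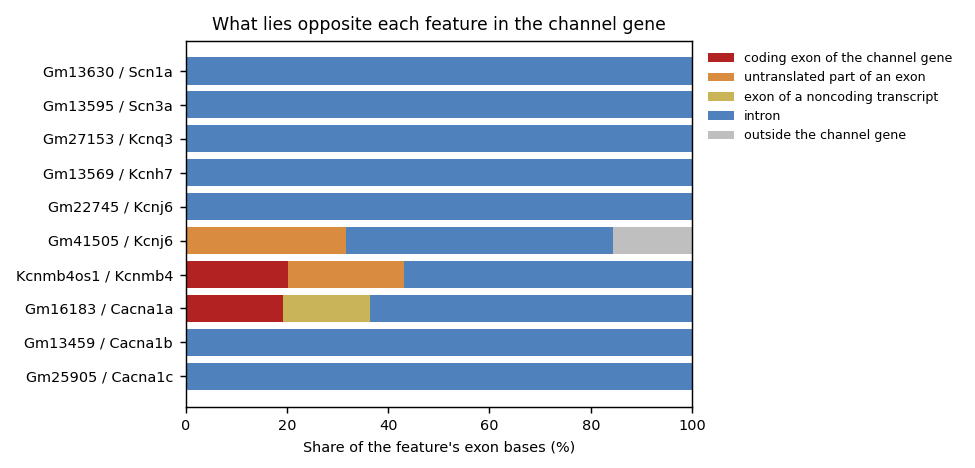
Share of each feature's exon bases (horizontal axis, %) that lies opposite coding exon, untranslated exon, exon of a noncoding transcript or intron of the channel gene, or outside it. Gm41505, Kcnmb4os1 and Gm16183 are the 3 features that reach exons of the channel gene; the other 7 lie opposite introns only.

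The 3 features that reach exons span splice sites of their channel genes, which are shown because U1 acts at the 5′ splice site and because these 3 genes carried the differences between U1 and input described below. Letters are from GENCODE M21 transcripts (GRCm38), 5′ to 3′ on the strand of the channel gene, with exon bases in capitals and intron bases in lower case. The first 3 are the 3′ splice sites of Kcnj6 (chr16:94749259-94749290, minus strand), Kcnmb4 (chr10:116418395-116418426, minus strand) and Cacna1a (chr8:84611578-84611609, plus strand), and the last 3 are 5′ splice sites of Cacna1a (chr8:84611737-84611768, chr8:84612401-84612432 and chr8:84615659-84615690, plus strand).
Kcnj6 3′ splice site: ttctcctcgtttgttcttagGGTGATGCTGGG
Kcnmb4 3′ splice site: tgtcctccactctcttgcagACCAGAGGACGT
Cacna1a 3′ splice site: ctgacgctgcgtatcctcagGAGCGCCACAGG
Cacna1a 5′ splice site, the first: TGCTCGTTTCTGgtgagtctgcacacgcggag
Cacna1a 5′ splice site, the second: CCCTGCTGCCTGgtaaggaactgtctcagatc
Cacna1a 5′ splice site, the third: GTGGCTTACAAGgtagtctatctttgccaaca
Against CAGGTAAGT, the 9 bases complementary to the 5′ end of U1 RNA, the first and the second Cacna1a sites matched at 7 of 9 bases, and the third, used by 1 annotated transcript, at 5. A site was listed only when 12 exon bases and 20 intron bases beside it lay within 1 exon of the feature. By that rule the features of Kcnj6 and Kcnmb4 span a 3′ splice site and no annotated 5′ splice site of their gene. Sites nearer the edge of a feature's exon were not searched.

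For the intron features, a window of 300 bases in the middle of the longest exon was read on the strand of the channel gene, which was possible for 5 of them. The window of Kcnh7 (chr2:62810288-62810587, GRCm38, minus strand) is shown because Kcnh7 had the highest estimate after MECS among the 9 genes, in input and in U1, a choice made after those values were seen. Capitals mark a run in which a unit of 4 bases repeats.
Kcnh7 intron 6 window: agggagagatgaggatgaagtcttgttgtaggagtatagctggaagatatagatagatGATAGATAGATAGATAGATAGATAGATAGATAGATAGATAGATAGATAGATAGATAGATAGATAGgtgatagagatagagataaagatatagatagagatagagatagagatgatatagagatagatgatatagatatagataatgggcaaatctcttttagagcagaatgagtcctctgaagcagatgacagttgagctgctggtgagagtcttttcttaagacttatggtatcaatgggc
The run is 65 bases long, and a run of at least 40 bases was found in 33 of the 4618 windows of intron features in the series (0.715%), while the longest run in the other 4 channel windows was 7 to 11 bases. How reads within such a repeat were placed was not stated in the labels. The 5′ splice site hexamers GTAAGT and GTGAGT and the polyadenylation signal AATAAA were searched on both strands. On the strand of the host they occurred in 5.2%, 7.88% and 11.7% of the 4618 windows and in 0 of the 5 channel windows. On the other strand they occurred in 3.29%, 7.1% and 12.5% of the windows and, among the 5, GTAAGT was found once, in Kcnq3.

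**Figure D2:**
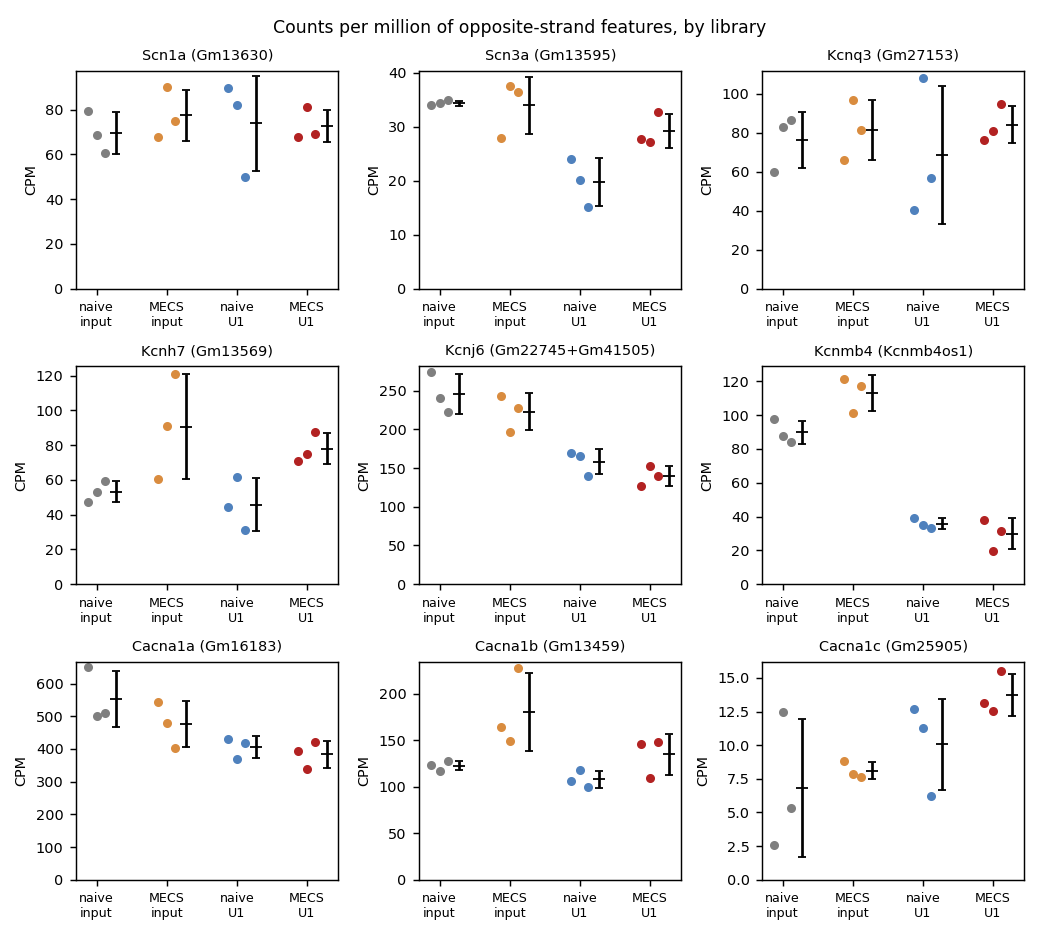
CPM (vertical axis, from 0) of the opposite-strand features of the 9 channel genes in each of the 12 libraries; points are libraries, horizontal ticks group means and bars the SD (n = 3). Kcnmb4 lies between 19.9 and 39.2 CPM in the U1 libraries and between 84.2 and 121 CPM in the input libraries.

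Levels differed widely among the 9 genes. Per kilobase of feature exon in naive input, the mean level was highest for Cacna1a (464 CPM per kb), the pore of P/Q-type calcium channels at presynaptic terminals. Kcnj6, Cacna1b and Kcnq3 followed at 194, 190 and 188 CPM per kb, then Kcnmb4 (109), Kcnh7 (92.5), Scn3a (69.7), Cacna1c (67.4) and Scn1a (19.1). In counts, Cacna1a had 320 to 751 per library, Kcnmb4 27 to 165, Scn3a 17 to 55 and Cacna1c only 3 to 26, which limits what can be said of the last gene.

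U1 and input were compared first in naive brain, with edgeR's quasi-likelihood test and Benjamini-Hochberg adjustment over all hosts, a gene being called at an adjusted p under 0.05. Of the 9 channel genes 3 were lower with U1 (Kcnmb4, Kcnj6 and Cacna1a) and none was higher, against 16.9% of all 3526 hosts called either way and 10.4% called lower. In MECS brain 2 of 9 were lower (Kcnmb4 and Kcnj6) and none higher, against 11.4% of 3564 hosts called either way and 6.57% called lower. The median log2 change of the 9 genes was -0.19 in naive and -0.19 in MECS brain, beside -0.01 and 0.02 over all hosts. The naive median was -0.52 without naive U1 2 and -0.11 without naive U1 3, and the MECS median was -0.32 without MECS input 1. The groups did not overlap, with U1 below input, in 4 genes in naive brain (17.4% of hosts) and in 3 in MECS brain (14.7% of hosts). With U1 above input they did not overlap in 0 genes in naive (14.3% of hosts) and in 1 in MECS brain (12.4% of hosts).

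Kcnmb4, the neuronal beta subunit that slows the opening of BK potassium channels, had the lowest ratio of U1 to input. Its feature was at 97.6, 87.5 and 84.2 CPM in naive input and at 39.2, 34.9 and 33.0 CPM in naive U1. In MECS brain it was at 121, 101 and 117 CPM in input and at 37.9, 19.9 and 31.6 CPM in U1. Every U1 library was below every input library in both treatments, with no overlap. The log2 change was -1.34 (SE 0.21, adjusted p = 4.16e-05), a level 2.54-fold lower with U1, in naive brain and -1.90 (SE 0.21, adjusted p = 1.02e-05), 3.74-fold lower, in MECS brain. The ratio within lysates, with 0.5 CPM added to both, was 0.401 ± 0.00521 (SD, n = 3) in naive and 0.263 ± 0.0582 (SD, n = 3) in MECS brain. A second antisense feature at the other end of the gene, Kcnmb4os2, has 35.4% of its exon bases inside Kcnmb4 and so was not counted as part of it. Its level was 129 ± 16.9 CPM in naive input, 44.6 ± 3.59 in naive U1, 131 ± 31.2 in MECS input and 45.1 ± 9.16 in MECS U1 (SD, n = 3).

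Kcnj6 encodes GIRK2, an inwardly rectifying channel that G proteins open below inhibitory receptors. Its summed features were at 274, 241 and 222 CPM in naive input and at 170, 165 and 140 CPM in naive U1. After MECS they were at 244, 197 and 228 CPM in input and at 127, 153 and 140 CPM in U1. The U1 libraries lay below the input libraries without overlap in both treatments, by a log2 change of -0.64 (SE 0.15, adjusted p = 0.00283) in naive and -0.65 (SE 0.14, adjusted p = 0.00394) in MECS brain. Nearly all of these counts were in Gm41505 over the 3′ end, at 233 ± 28.2 CPM in naive input (SD, n = 3). The small miRNA feature in intron 2, Gm22745, stood at 4.88 ± 0.986 CPM there and at 7.72 ± 5.49 CPM in naive U1. After MECS it stood at 4.98 ± 1.46 CPM in input and 6.49 ± 2.36 CPM in U1 (SD, n = 3). With 3 to 14 counts per library it was not tested by itself.

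Cacna1a was at 652, 500 and 509 CPM in naive input and at 432, 369 and 418 CPM in naive U1, with no overlap. The log2 change was -0.45 (SE 0.14, adjusted p = 0.0253). In MECS brain the values were 544, 480 and 404 CPM in input and 392, 340 and 421 CPM in U1, which overlapped, and the change of -0.29 (SE 0.13, adjusted p = 0.191) was not called. The call in naive brain was lost without naive input 1, the library at 652 CPM (-0.29, adjusted p = 0.281), and also when naive input 2, naive U1 1 or naive U1 2 was left out or when genes were not filtered on low counts (-0.41, adjusted p = 0.052). Fitted among all features instead of hosts, Gm16183 gave -0.42 and an adjusted p of 0.0998.

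Of the 2 other calcium channels, Cacna1b (the pore of N-type channels, which like the P/Q type act in transmitter release) was at 124, 117 and 128 CPM in naive input and at 106, 118 and 99.8 CPM in naive U1, values that overlap. In MECS brain the U1 libraries (147, 110 and 148 CPM) were all below the input libraries (164, 149 and 228 CPM). The log2 change of U1 against input there was -0.40 (SE 0.17, adjusted p = 0.175) and was called only when the lysate was fitted as a block (-0.40, adjusted p = 0.0406). Cacna1c, the L-type channel that signals to the nucleus, ranged from 2.61 to 12.5 CPM in naive input and from 6.24 to 12.7 CPM in naive U1. In MECS brain it was higher with U1 in all 3 libraries (12.5 to 15.5 CPM) than in input (7.67 to 8.83 CPM), as were 12.4% of hosts. At these counts the change of 0.77 (SE 0.37) had an adjusted p of 0.232.

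Scn3a, a sodium channel expressed most before birth, was at 34.0, 34.4 and 34.9 CPM in naive input and at 24.0, 20.2 and 15.2 CPM in naive U1. These groups did not overlap, yet the log2 change of -0.82 (SE 0.29, adjusted p = 0.0548) missed the threshold. It passed when all 12 libraries were fitted together (-0.81, adjusted p = 0.033). Scn1a, the sodium channel of inhibitory interneurons that is mutated in Dravet syndrome, had overlapping values from 49.9 to 89.9 CPM in naive and from 67.7 to 89.9 CPM in MECS brain, with log2 changes of 0.08 (SE 0.22) and -0.07 (SE 0.18). For Kcnq3, a subunit of the M-current that restrains repeated firing, the changes were -0.08 (SE 0.26) and 0.07 (SE 0.19). For Kcnh7, a channel of the ether-a-go-go related family, they were -0.19 (SE 0.25) in naive and -0.19 (SE 0.22) in MECS brain.

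**Figure D3:**
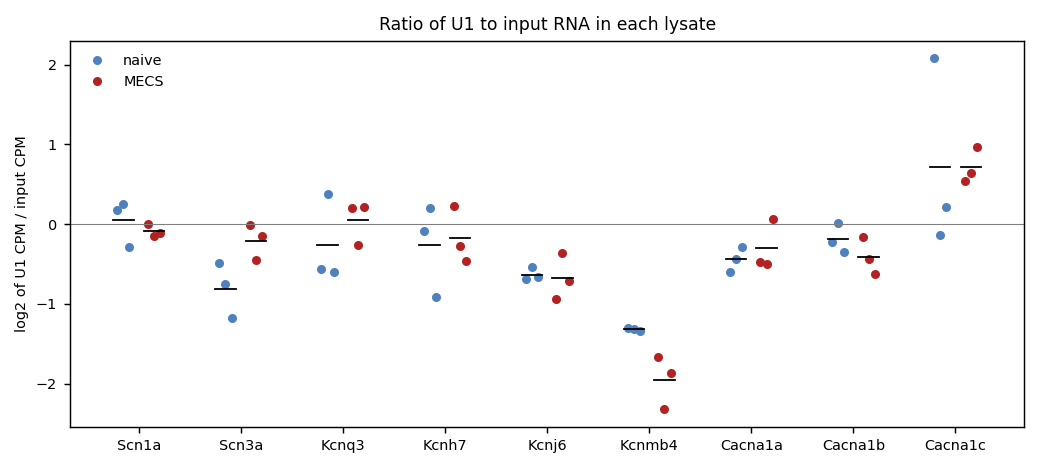
Log2 ratio of U1 CPM to input CPM (vertical axis, with 0.5 CPM added to both) in each lysate for the 9 channel genes; points are lysates, lines group means, n = 3 naive and 3 MECS lysates. Kcnmb4 lies lowest, with ratios from 0.395 to 0.405 in naive and from 0.2 to 0.315 in MECS lysates, while Scn1a and Kcnq3 lie around equal levels.

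The ratios by channel class are of summed CPM within lysates, without the 0.5 CPM added for single genes. They were 0.893 ± 0.184 in naive and 0.922 ± 0.0748 in MECS brain for the 2 sodium channels with features. For the 2 voltage-gated potassium channels they were 0.882 ± 0.331 and 0.966 ± 0.175, and for the 3 calcium channels 0.772 ± 0.057 and 0.803 ± 0.0986. Cacna1a holds most of the calcium channel sum. With 0.5 CPM added to both, its own ratios were 0.741 and 0.824, while Cacna1b had 0.884 and 0.760. Cacna1c, at its low counts, had such ratios of 0.909 to 4.23 in naive and a mean of 1.66 ± 0.265 (SD, n = 3) in MECS lysates. The class ratio was 0.645 ± 0.0368 and 0.637 ± 0.13 for the inward rectifier Kcnj6 and 0.398 ± 0.00547 and 0.26 ± 0.0588 for the BK beta subunit (SD, n = 3 for all). The last 2 classes rest on 1 gene each, and the HCN channel and the GABA-A receptor subunits had no feature.

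The 3 genes called lower in naive brain were the 3 whose features reach exons of the channel gene. Over all hosts, a feature was classed as an intron feature when at least 80% of its overlap was opposite introns. Some of those can therefore reach exons too. Among hosts with any other feature 21.3% of 1315 were called lower in naive brain, against 3.98% of 2211 hosts with intron features only. In MECS brain the shares were 14.1% of 1316 and 2.14% of 2248 hosts, and 2 of 3 and 0 of 6 channel genes. When only intron features were counted, 6 of the 9 genes could be tested and none was called in either treatment, by edgeR's test. The 3 called genes had no tested feature left there, so this count says nothing about them. The part of the exon overlap in the calls was not tested.

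After MECS, no channel gene was called in input (0 of 8 tested, against 1.25% of 3449 hosts, or 43) or in U1 RNA (0 of 9, against 0.305% of 3604 hosts, or 11) by edgeR's test. DESeq2 also called 0 of them in each, with 49 and 40 hosts called. At an unadjusted p under 0.05, edgeR had 413 hosts in input, Kcnh7 and Cacna1b among them, and 450 in U1, Scn3a and Kcnh7 among them. The median log2 change of the channel genes was 0.13 in input and 0.22 in U1, beside -0.01 in both over all hosts. The input median was 0.24 without MECS input 1 and 0.02 without MECS input 2. For U1 the median became 0.38 when naive U1 2 was left out, and lay at 0.11 when this was naive U1 1, at 0.08 for naive U1 3 and at 0.13 for MECS U1 3. Over the 6 genes with intron features only it was 0.36. Groups without overlap, MECS above naive, were found for Cacna1b, Kcnmb4 and Kcnh7 in input (8.93% of hosts) and for Scn3a and Kcnh7 in U1 (9.66% of hosts). No channel gene had all MECS libraries below all naive libraries, which 7.48% of hosts had in input and 7.27% in U1, so that 0 of 8 or 9 genes is not apart from the background.

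Kcnh7 had the highest estimate in both. Its intron feature was at 47.0, 53.1 and 59.2 CPM in naive input and at 60.3, 90.8 and 121 CPM in MECS input. In U1 it was at 44.3, 61.5 and 31.2 CPM in naive and at 70.7, 75.1 and 87.7 CPM in MECS brain. All MECS libraries were above all naive libraries of the same kind, in input by as little as 60.3 against 59.2 CPM. The log2 change was 0.76 (SE 0.24, adjusted p = 0.123), 1.70-fold, in input and 0.73 (SE 0.22, adjusted p = 0.161), 1.66-fold, in U1, so neither passed. It passed in input without a filter on low counts (0.75, adjusted p = 0.0311), with the replicate number as a block (0.74, adjusted p = 0.026) and without MECS input 1 (0.99, adjusted p = 0.0136). In U1 it passed without the filter (0.73, adjusted p = 0.0323) and without naive U1 2 (1.06, adjusted p = 0.0415). The input estimate was 0.50 (adjusted p = 0.645) without MECS input 3, the library at 121 CPM, and the U1 estimate was 0.52 (adjusted p = 0.374) without naive U1 3.

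The intron feature of Cacna1b was at 123 ± 5.21 CPM in naive and at 181 ± 42 CPM in MECS input (SD, n = 3), with 1 MECS library at 228 CPM. The log2 change of 0.55 (SE 0.17, adjusted p = 0.126) did not pass except with the replicate number as a block (0.55, adjusted p = 0.0295), and without MECS input 3, the library at 228 CPM, it was 0.35 (adjusted p = 0.662). In U1 its log2 estimate was 0.31 (SE 0.16, adjusted p = 0.46). The estimates of Kcnmb4 were 0.34 (SE 0.17, adjusted p = 0.452) in input and -0.25 (SE 0.26) in U1. Scn3a was at 34.0 ± 5.25 CPM in MECS input beside 34.4 ± 0.467 in naive input (SD, n = 3), while in U1 it was at 27.7, 27.3 and 32.8 CPM after MECS, above the 3 naive values of 15.2 to 24.0 CPM. The U1 change of 0.58 (SE 0.27) had an adjusted p of 0.383.

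For the remaining genes no estimate passed the threshold. On the log2 scale Kcnj6 had -0.13 (SE 0.14) in input and -0.18 (SE 0.15) in U1, Cacna1a by -0.21 (SE 0.14) and -0.08 (SE 0.13), Scn1a by 0.16 (SE 0.20) and -0.03 (SE 0.21) and Kcnq3 by 0.10 (SE 0.21) and 0.22 (SE 0.26). Kcnq3 in naive U1 spread from 40.5 to 108 CPM, wider than any other group of that gene. Cacna1c did not pass the filter on low counts in input and had an estimate of 0.45 (SE 0.37) in U1.

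**Figure D4:**
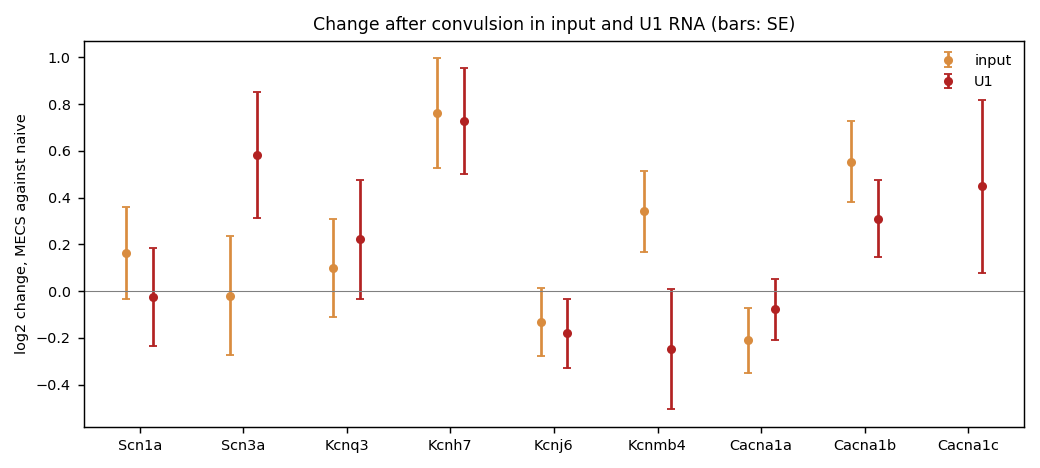
Log2 change after MECS against naive (vertical axis) in input and in U1 RNA for the 9 channel genes, with SE bars (3 against 3 libraries; Cacna1c was tested in U1 only). Kcnh7 lies highest in both, at 0.76 and 0.73, and no gene passed the adjusted threshold.

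The test of the difference itself, whether MECS changed the ratio of U1 to input, called 0 of the 9 channel genes and 0% of 3742 hosts by edgeR and 0 of both by DESeq2. At an unadjusted p under 0.05 edgeR had 119 hosts and 0 of the 9 genes. The largest estimates among the channel genes were 0.61 (SE 0.36) for Scn3a and -0.58 (SE 0.30) for Kcnmb4, each with an adjusted p of 0.996. With 0.5 CPM added to both, Scn3a had ratios of 0.582 ± 0.135 in naive and 0.875 ± 0.133 in MECS lysates (SD, n = 3). Kcnmb4 had ratios of 0.401 ± 0.00521 in naive and 0.263 ± 0.0582 in MECS lysates (SD, n = 3). On simulated data this interaction test recovered 48.4% of hosts changed by 1 log2 unit, so changes of the size seen here could be missed.

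The channel genes' own rows held few reads. As the strand setting is not given, low counts in an own row do not show that the channel mRNA was low. Syp, for example, had a mean of 18.9 CPM in its own row and 4000 CPM as a host in naive input. Across the 12 libraries Gabrb2 had 0 to 7 counts, Kcna4 0 to 4, Kcnj2 0 to 4, Kcnmb4 0 to 11, Scn3a 0 to 5, Kcnc2 1 to 6, Kcnd2 1 to 8, Kcnj4 2 to 11, Scn2a 0 to 15 and Kcnq5 3 to 11. The highest were Kcnh7 with 130 to 380, Cacna1c with 90 to 265 and Cacna1a with 87 to 151. Scn8a, the sodium channel of the axon initial segment, had 29 to 71, Kcnc1 25 to 67, Cacna1e 31 to 63, Cacna1b 23 to 67 and Hcn2 18 to 63. Scn1a had 3 to 18 counts, Kcna1 4 to 28, Kcna2 6 to 30, Kcnq3 5 to 18, Kcnj3 8 to 35, Kcnj6 5 to 20, Gabra2 3 to 17 and Gabra4 3 to 18. In the Kcnh7 row, 696 exon bases overlap exons of Gca on the other strand, and Gca stood at 150 ± 22.5 CPM in naive input and 56.8 ± 22.4 CPM in naive U1 (SD, n = 3).

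In the fit over all features, the own rows of 14 of the 26 genes could be tested between U1 and input in naive brain. None was called by edgeR, against 10.5% of 10918 features. The Kcnh7 row (adjusted p = 0.0675) was called lower by edgeR with RLE scaling (-0.50, adjusted p = 0.04999). It was also called without naive input 3 (-0.61, adjusted p = 0.0322) or naive U1 2 (-0.60, adjusted p = 0.0296). At an unadjusted p under 0.05 edgeR had 3 of the 14 (Kcna2, Kcnc1 and Kcnh7) and 2324 of the 10918 features. In MECS brain 1 of 15 was called, Kcna2, against 8.51% of 10791 features. There 7 of the 15 had an unadjusted p under 0.05 (Scn8a, Kcna2, Kcnh7, Cacna1a, Cacna1b, Cacna1e and Gabra2), as had 2143 of the 10791 features. The estimates were negative for 11 of 14 rows in naive and for 13 of 15 in MECS brain, with medians of -0.36 and -0.45 beside 0.03 and 0.02 over all features. Kcna2, a delayed rectifier of axons, was at 20.5, 15.9 and 14.3 CPM in naive input and at 7.37, 8.56 and 7.78 CPM in naive U1. In MECS brain it was at 17.0, 15.2 and 28.9 CPM in input and at 7.57, 6.12 and 8.04 CPM in U1. The U1 libraries lay below the input libraries in both treatments, but the share of all features separated in this way was not counted. The log2 change was -1.07 (SE 0.43, adjusted p = 0.124) in naive and -1.45 (SE 0.38, adjusted p = 0.0164) in MECS brain, where the call was lost without MECS input 3 (-1.15, adjusted p = 0.141), MECS U1 1 (-1.48, adjusted p = 0.0584) or MECS U1 2 (-1.35, adjusted p = 0.0534). With the lysate as a block, own rows of Scn8a (-0.64), Kcnh7 (-0.40), Cacna1b (-0.69) and Cacna1e (-0.72) were also called lower in MECS brain. Without MECS U1 2 the Kcnh7 row was called lower there too (-0.61, adjusted p = 0.0259). After MECS no own row was called in input (0 of 14, against 0.644% of 10402 features) or U1 (0 of 13, against 0.386% of 11141), and none of 17 in the test of the ratio (0% of 12184 features). In these 3 comparisons 0 own rows had an unadjusted p under 0.05, and DESeq2 called 0 as well.

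**Figure D5:**
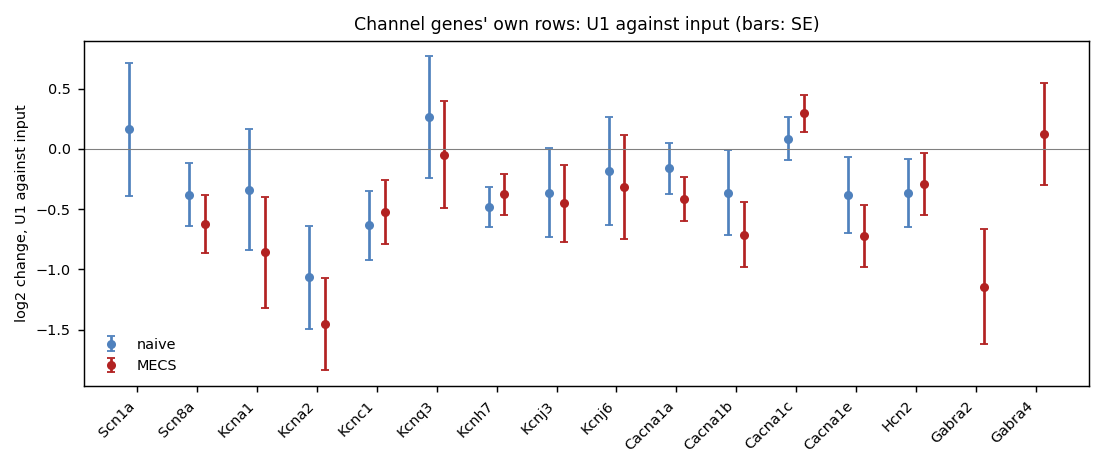
Log2 change of U1 against input (vertical axis) in the own rows of the channel genes that could be tested, in naive and MECS brain, with SE bars (3 against 3 libraries). Kcna2 lies lowest, at -1.07 and -1.45, and most estimates are below 0.

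Channel genes outside the 26 were read in the same way. Of 129 further genes with a channel symbol 39 were hosts, and of 34 tested between U1 and input 10 were lower and 1 higher in naive brain, beside 10.4% lower and 6.44% higher over all hosts. In MECS brain 6 were lower and 1 higher, beside 6.57% and 4.83% of hosts. Their medians were -0.27 in naive and -0.09 in MECS brain, against -0.01 and 0.02 over all hosts. The lower genes included the GABA-A receptor subunit Gabra5, at -1.50 (SE 0.25) in naive and -1.65 (SE 0.24) in MECS brain, whose features lie opposite introns only. The calcium channel beta subunit Cacnb4 was lower by a log2 change of -1.08 (SE 0.16) and -0.73 (SE 0.12). The 1 higher gene was Kcnq1, whose features lie opposite introns only. As a host it was also the 1 further channel gene called after MECS by edgeR. It was higher in input by 1.22 (SE 0.19, adjusted p = 0.00152) and in U1 by 0.73 (SE 0.15, adjusted p = 0.0464). Reads of the Kcnq1 transcript and reads of an antisense transcript in its introns cannot be told apart here. In the test of the ratio 0 of 35 were called by edgeR.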

How the data were processed

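RNA-seq of input and U1-70K precipitates from 12 mouse brain libraries was analysed as whole-number counts per gene, deposited by the authors with no normalization. Per the submitters' processing notes, the tools were DESeq2, Salmon 1.4, StringTie 2.1.3, HISAT2 2.2.0, Trimmomatic 0.39 and FastQC, on the mm10 build; the program and strand setting used for counting were not stated. Of 55471 identifiers 55230 matched GENCODE M21. Library sizes exclude rows that are not genes (reads in no feature were 88.3 to 91.3% of those listed).

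Counts of features with at least 50% of exon bases inside an opposite-strand gene were summed per gene. The sums, and separately all features, were fitted with edgeR 4.0.16 (R 4.3.3; TMM, filterByExpr, quasi-likelihood test, Benjamini-Hochberg at 0.05), and CPM use TMM-scaled library sizes. Each comparison used 6 libraries and the test of the ratio all 12. These main fits had no block, so that U1 and input libraries of the same lysate were tested as independent. The alternatives were RLE scaling, no filter, a filter of 1 CPM in 3 libraries, DESeq2 1.42.0, 1 fit of all libraries, a block, other host rules and leaving out each library. On simulated data with 200 changed hosts, the tests recovered 68.6 to 80.4% of hosts changed by 1 log2 unit between groups and 92.3 to 98.1% of those changed by 2.

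Titles pair U1 and input by lysate: deviations from group means correlated at 0.0491, 0.026 and -0.00453 in naive and 0.0626, 0.201 and 0.0978 in MECS pairs (4312 hosts). Naive and MECS lysates share only a number. All 26 genes are named, the largest feature of each, and own rows where they passed. The members and lists were chosen with earlier results of these data known. Whether replicates are single animals is not stated, so p-values measure the spread between these lysates. The values of 1 further channel gene are not reported here.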

Additional observations from a re-analysis of the deposited data

How the results depend on the processing

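No estimate that was called in any setting changed its sign under another; sign changes were limited to estimates called in none (Scn1a, Scn3a, Kcnq3 and Kcnh7 in single comparisons, and Kcnq3, Kcnh7, Kcnj6, Cacna1c and the median of the 9 genes in the test of the ratio). Members called after MECS in input went from 0 to 1 (Kcnh7) without a filter and to 2 (Kcnh7, Cacna1b) with the replicate number as a block, and ranged from 0 to 1 when 1 library was left out (1 without MECS input 1). In U1 they went to 1 without a filter and ranged from 0 to 1 (1 without naive U1 2). Between U1 and input the count went from 3 (naive) and 2 (MECS) to 0 in both with intron features only, where the called genes have no tested feature left; it was 3 in MECS brain with the lysate as a block. Leaving out 1 library gave 2 to 3 in naive and 2 in every case in MECS brain. Counting single features and own rows after MECS, 1 library left out gave 0 to 1 in input and 0 to 2 in U1 (Gm13569 at 1.17 and Gm27153 in Kcnq3 at 0.87 without naive U1 2), and no filter gave 1 in U1. Between U1 and input this count was as low as 1 in naive (without naive input 1) and in MECS brain (without MECS U1 1), and 7 in MECS brain with the lysate as a block. Gm41505 in Kcnj6 lost its call without naive input 1 (adjusted p = 0.0865) and without MECS U1 1 (adjusted p = 0.0509). Kcnj6 and Kcnmb4 as hosts stayed called lower in both treatments under every alternative that could test them. Over all hosts, the 43 calls after MECS in input became 108 without a filter, 115 with the block and 8 to 56 with 1 library left out. The 11 in U1 became 116 without a filter, 40 with DESeq2, 28 in 1 fit of all libraries, 1 with the block and 1 to 87 with 1 library left out. With intron features only, 244 (naive) and 172 (MECS) hosts differed between U1 and input. With the lysate as a block these were 617 (naive) and 589 (MECS) hosts, beside 595 and 406 in the main fits. The block gave no other change of call among the 9 genes. Depth limits Cacna1c, Scn3a and most own rows.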
